A study of Mus musculus with 5 samples.

Results

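Neuropeptides are small signalling proteins that neurons cut from larger precursors and release beside their fast transmitter. The 10 genes described here encode precursors of peptides made by hippocampal neurons: Npy, Sst, Penk, Pdyn, Tac1, Tac2, Cck, Crh, Adcyap1 and Gal. They were chosen by name, as the genes whose symbol in the count tables equalled a member of this list, and each symbol matched 1 of the 55385 genes counted. The list was made with earlier results of these data known, so its counts set against all genes are a description only. All 10 of 10 were among the 19768 genes that passed the filter on low counts.

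The study followed gene expression in the hippocampus of male C57/bl6 mice after seizures. Kainic acid, an agonist of ionotropic glutamate receptors that provokes seizures in rodents, was injected at 20 mg/kg into the abdominal cavity, and hippocampi were collected at 3 times counted from the first seizure: 1, 4 and 8 h. The control was untreated, so it also lacked the injection. The mice of all groups were 3 months old, with no genetic change named. Of the 5 RNA sequencing libraries, 1 was from the control, 1 from 1 h, 2 from 4 h and 1 from 8 h, and the pair at 4 h is called library 1 and library 2. Nothing in the labels states that these came from separate mice. Every p of the main fit rests on the spread of that pair, and whether this spread is one between mice is not known. Reads assigned to genes came to 19100374 for the control, 17744508 for 1 h, 18250114 and 19109204 for libraries 1 and 2, and 16612225 for 8 h.

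In the hippocampus, Npy and Sst are best known from GABAergic interneurons, while Pdyn and Penk are made by granule cells of the dentate gyrus and by some interneurons. Their peptides are stored in dense core vesicles, which tend to be released during strong or repeated firing, and act through receptors coupled to G proteins. Synthesis of a new precursor follows transcription, so RNA levels of these genes have long been used as a record of past seizure activity.

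Library 1 of 4 h stood apart in its cell type markers, and the main fitted values at that time all draw on it. All 7 of 7 choroid plexus markers were at least 2-fold lower there than in the control, and their summed level was 30.1 normalised CPM (read counts scaled to a common library size), against 4027 in the control, 1706 after 1 h, 4293 in library 2 and 3121 after 8 h. Ttr, the most abundant of them, was at 16.3 CPM in library 1 and 3971 CPM in library 2. In contrast, 7 of 8 markers of thalamus and habenula were at least 2-fold higher in library 1 than in the control. Their sum was 144 CPM in the control, 164 after 1 h, 536 in library 1, 224 in library 2 and 115 after 8 h, and Rora, their most abundant gene, was at 214 CPM in library 1 and 93.0 CPM in library 2. Of this list, Pou4f1 was at 0 counts in library 2, with 3 in library 1 and 1 in the control, and the other 7 were detected in every library. In library 2, Prkcd (ratio 2.92), Gpr151 (2.43) and Chrnb4 (2.11, on 8 counts against 4) were also at least 2-fold above the control. Reads outside genes made up 33.1% of the deposited total in library 1, against 24.7% in the control, 29.0% after 1 h, 25.3% in library 2 and 30.9% after 8 h. The part that these differences play in the results below was not tested, and for 4 h levels are given in both libraries and fitted differences from the control also without library 1.

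The sums of the other marker lists varied less, and the gene that leads a list below is the one with the highest CPM summed over the 5 libraries. Interneuron markers (10 genes, led by Gad1) summed to 1140 CPM in the control, 1180 after 1 h, 1472 and 1310 after 4 h and 1009 after 8 h. In library 1 their ratios to the control ran from 0.72 for Nos1 to 2.01 for Gad1, with Lhx6 at 0.82 and Slc32a1 at 0.89. The 8 markers of excitatory neurons ranged from 3336 to 3879 CPM, with Camk2a the most abundant. Ratios to the control in libraries 1 and 2 were 0.85 and 0.94 for Camk2a, whereas they were 0.42 and 0.47 for Neurod6. Neurod2 was at 0.61 and 1.08 in these libraries and at 1.97 after 8 h. Dentate granule cell markers (8 genes, led by Prox1) summed to 509 CPM in the control, 526 after 1 h, 448 and 357 after 4 h and 428 after 8 h. Within this list the genes moved apart at 4 and 8 h, and 4 of 8 were at least 2-fold lower than the control in library 1. Ratios to the control in libraries 1 and 2 were 0.06 and 0.19 for Dsp, 0.12 and 0.35 for Lct, 0.38 and 0.40 for C1ql2 and 0.47 and 0.52 for Stxbp6, whereas Prox1 was at 2.86 and 1.99. At 8 h the ratio was 0.39 for C1ql3, 0.59 for Calb1 and 1.98 for C1ql2. The part of these differences in the values of Pdyn and Penk was not tested. The 10 markers of CA1 and CA3 pyramidal cells, led by Tyro3, summed to between 661 and 762 CPM. Astrocyte markers (7 genes, led by Aldoc) were at 1761 CPM in the control, 1866 after 1 h, 2437 and 2271 after 4 h and 2086 after 8 h. Among them, Gfap was at 221 CPM in the control, 596 and 510 after 4 h and 587 after 8 h. In contrast, Gja1 was at 195 CPM in the control and 98.6 after 8 h, and Aldoc at 638 and 624. Oligodendrocyte markers (7 genes, led by Mbp) were at 3351 CPM in the control, 4181 after 1 h, 3948 and 5088 after 4 h and 3314 after 8 h. Sums for endothelial cells (6 genes, led by Flt1) and striatum (7 genes, led by Ppp1r1b) lay between 139 and 163 and between 56.5 and 84.8 CPM. Hypothalamic markers were near 0, with a summed level of at most 1.60 CPM over 8 genes, of which Pmch, Hcrt, Agrp, Oxt, Ghrh and Nkx2-1 were at 0 counts in at least 1 library. In bulk RNA, fewer cells of a type and less RNA per cell cannot be told apart.

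At 4 h the precursors of the opioid peptides and Crh were above the control in both libraries, by more in library 1. At 8 h Npy had the largest ratio to the control of the 10 genes. At 4 h, Penk, Pdyn, Crh and Gal (4 of 10 genes) were at least 2-fold higher than the control in both libraries, against 4.96% of all 19768 genes tested. Without library 1 the count was 5 of 10, with Npy added, against 6.59% of all genes. At 8 h, Npy, Pdyn, Crh and Gal (4 of 10) were at least 2-fold higher, against 6.79% of all genes, and at 1 h 0 of 10 were, against 5.41%. Gal reached 10 counts only in the 4 h and 8 h libraries. It thus passed the filter on low counts through the libraries where it was high. Its place in these counts therefore carries no weight. None of the 10 was at least 2-fold lower at 1, 4 or 8 h, against 3.8%, 1.51% and 3.37% of all genes, or at 4 h without library 1, against 3.73%. All 3 time points were compared with the same control library, so an error in that library would move all of them. Scaled by library size alone, 2 of 10 genes, Pdyn and Crh, passed this fold rule upwards at 4 h, against 4.02% of all genes, and 0 of 10 downwards, against 2.31%. That scaling moved the median log2 fold change of all genes at 4 h to -0.11.

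**Figure D1:**
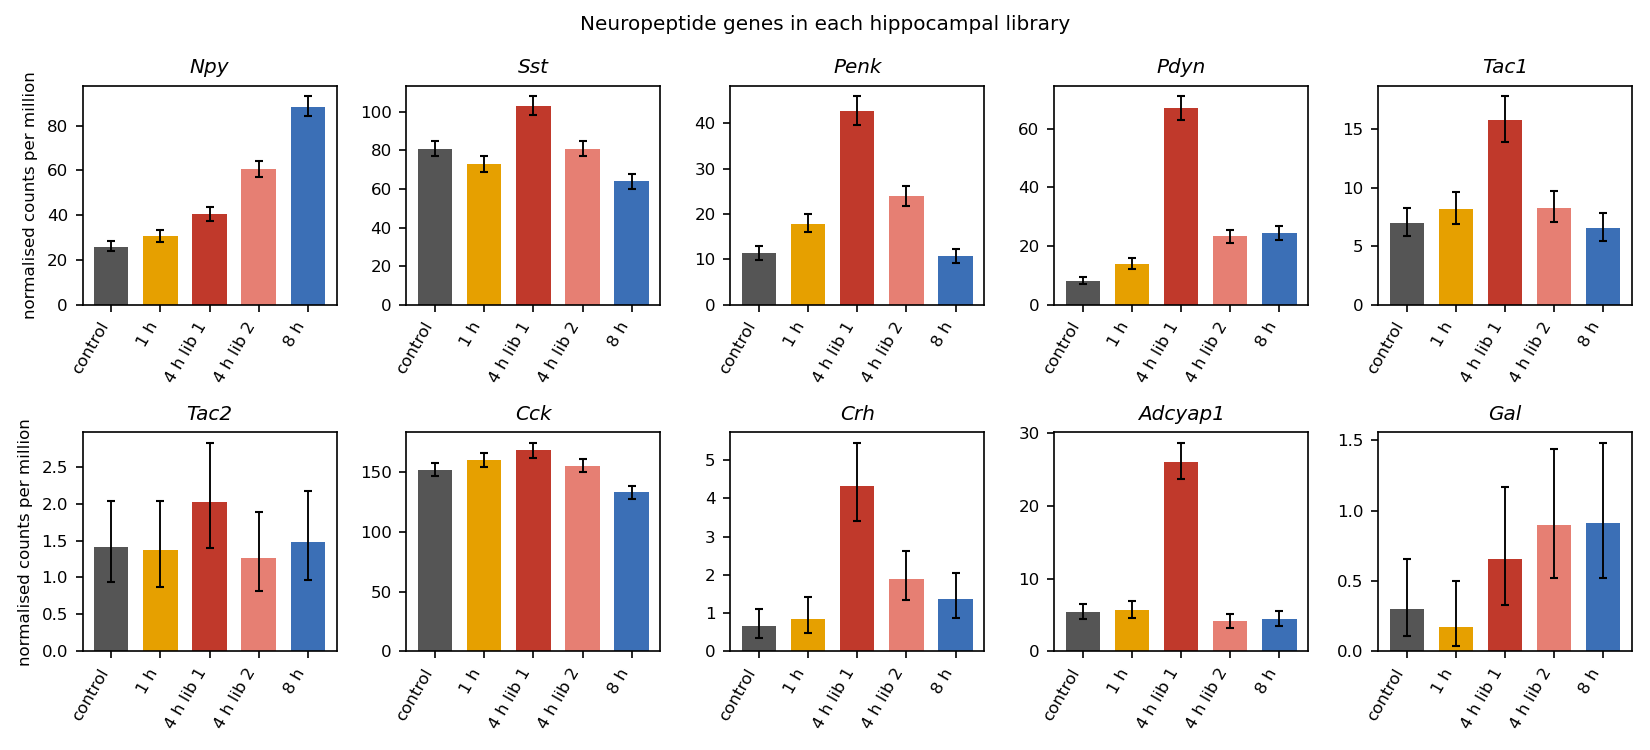
Level of each neuropeptide gene in normalised CPM (vertical axes, from 0) in the 5 libraries (horizontal axes), where lib is a library of the 4 h pair and bars carry exact Poisson 95% intervals for counting error only. Npy was highest at 8 h with 88.5 CPM, while Penk, Pdyn, Tac1, Crh, Adcyap1, Sst, Cck and Tac2 (8 of 10) were highest in library 1 of 4 h.

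None of these differences passed the test across all genes. With the quasi-likelihood test of edgeR and Benjamini-Hochberg adjustment, 0 of 10 genes had an adjusted p under 0.05 at 1, 4 or 8 h, where the test called 0%, 0.00506% and 0% of all genes. The single gene called at 4 h was ETV3L, a gene outside the list that is named after its values were seen. At an unadjusted p under 0.05 there were 0, 4 and 1 of 10 genes, against 2.42%, 11.6% and 4.51% of all genes, those at 4 h being Npy, Penk, Pdyn and Crh. DESeq2 gave an adjusted p to 9, 7 and 9 of the 10 genes, leaving out Gal at each time and Tac2 and Crh at 4 h, and called 0, 0 and 1 of those, against 0.323%, 1.62% and 0.206% of all genes it adjusted, and limma-voom called 0 of 10 and 0% of all genes at each time point. The only residual degree of freedom (1) came from libraries 1 and 2, and the control, 1 h and 8 h libraries were assumed to vary like that pair. As a median over the 10 genes, log2 fold changes came to 0.15 after 1 h, 1.03 after 4 h and -0.01 after 8 h, and over all genes tested to -0.01, 0.01 and 0.01. The median for 4 h dropped to 0.65 without library 1, with 0.00 over all genes.

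Pdyn encodes prodynorphin, the precursor of dynorphins, which act on the kappa opioid receptor. It lies on the reverse strand at chr2:129686565-129699844 (GRCm38, GENCODE M21). Its level was 8.24 CPM in the control, 14.0 CPM at 1 h, 66.9 and 23.3 CPM in libraries 1 and 2 of 4 h and 24.4 CPM at 8 h, from counts between 164 and 1127. Every kainic acid library was above the control, and the 4 h libraries differed more from each other than library 2 did from 8 h. The ratio to the control was 8.12 (exact binomial 95% interval 6.89 to 9.63) in library 1 and 2.82 (2.36 to 3.40) in library 2, and these intervals cover counting error only. On the log2 scale the fitted change was 0.76 ± 0.72 (SE) at 1 h, 2.44 ± 0.68 after 4 h and 1.55 ± 0.72 after 8 h, with adjusted p = 1, 0.347 and 1.00 (edgeR quasi-likelihood, Benjamini-Hochberg). Without library 1 the log2 fold change at 4 h was 1.49, and without library 2 it was 3.01.

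Penk encodes the precursor of the enkephalins, which act on delta and mu opioid receptors. Unlike Pdyn, it was near the control in the single library of 8 h, and the difference between these genes was not tested. Penk is on the reverse strand at chr4:4133531-4138819. Its level was 11.4 CPM in the control, 17.9 CPM at 1 h, 42.6 and 23.9 CPM at 4 h and 10.7 CPM at 8 h. Both 4 h libraries were above all others, and the 8 h library was back within the counting interval of the control, with a ratio of 0.94 (0.77 to 1.15). The log2 fold change was 1.53 ± 0.42 (SE) at 4 h with adjusted p = 0.337 and -0.09 ± 0.46 after 8 h with adjusted p = 1.00 (edgeR quasi-likelihood, Benjamini-Hochberg), and without library 1 it was 1.06 after 4 h. Compared directly, 8 h was lower than 4 h by a log2 fold change of -1.62 ± 0.42 (adjusted p = 0.476, same test), which did not pass the threshold either. Exons of the antisense gene A830012C17Rik overlap 233 bases of Penk exons. That gene had between 0 and 3 counts per library, with 0 in library 1, where Penk was highest. The strand setting used for counting is not given in the sources used here.

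Npy encodes neuropeptide Y, which dampens glutamate release in the hippocampus. The gene is on the forward strand at chr6:49822710-49829507. Its level was 26.03 CPM in the control, 30.7 CPM at 1 h, 40.3 and 60.7 CPM at 4 h and 88.5 CPM at 8 h, from 518 to 1552 counts. Each later time point lay above the earlier ones, and unlike the opioid precursors Npy was lower in library 1 than in library 2. The ratio to the control at 8 h was 3.40 (3.08 to 3.76). Fitted against the control, Npy had a log2 fold change of 0.24 ± 0.33 (SE) for 1 h, 0.95 ± 0.30 after 4 h and 1.76 ± 0.34 after 8 h, with adjusted p = 1, 0.363 and 0.882 (edgeR quasi-likelihood, Benjamini-Hochberg). This was the gene that DESeq2 called at 8 h, with an adjusted p of 0.0297, and over 11 alternative settings with a test its adjusted p at 8 h ranged from 3.34e-07 to 1 and was under 0.05 in 3, namely DESeq2, an assumed biological coefficient of variation of 0.2 and no filter on low counts. From 4 to 8 h the log2 fold change was 0.81 ± 0.28 (adjusted p = 0.544, edgeR quasi-likelihood), and without library 1 the value at 4 h was 1.22.

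Crh, the precursor of corticotropin-releasing hormone, which starts the hormonal stress response in the hypothalamus and is made by some hippocampal interneurons, was rare. It lies at chr3:19693401-19695396 on the reverse strand, and had 13 counts in the control, 15 after 1 h, 73 and 36 after 4 h and 24 after 8 h. These counts correspond to 0.65, 0.85, 4.34, 1.90 and 1.37 CPM. Both 4 h libraries were above the control beyond counting error, with ratios of 6.64 (3.65 to 13.1) and 2.91 (1.51 to 5.99), whereas the interval of the ratio at 8 h began just above equality, at 2.10 (1.03 to 4.48). Its fitted log2 difference at 4 h was 2.08 ± 0.75 (SE) with adjusted p = 0.381 (edgeR quasi-likelihood, Benjamini-Hochberg), and it was 1.40 without library 1.

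Adcyap1, which encodes the peptide PACAP, an activator of adenylate cyclase, was high in a single library. The gene is on the forward strand at chr17:93199017-93206537. Its level was 5.43 CPM in the control, 5.63 CPM at 1 h, 26.1 CPM in library 1 of 4 h, 4.12 CPM in library 2 and 4.45 CPM at 8 h. Library 1 was 4.82-fold above the control (3.89 to 6.001), whereas library 2 was at a ratio of 0.76 (0.56 to 1.03). For 4 h the fit gave a log2 fold change of 1.46 ± 1.05 (SE; adjusted p = 0.618, edgeR quasi-likelihood, Benjamini-Hochberg), and without library 1 it turned to -0.39. The ratio of library 1 to library 2 was 6.34 for Adcyap1 and 2.39 for the summed markers of thalamus and habenula, and the part of those markers in this value was not tested.

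The tachykinin precursors were less variable. Tac1 (chr6:7554879-7565834, forward strand) encodes substance P and neurokinin A, and was at 6.98 CPM in the control, 8.19 CPM at 1 h, 15.8 and 8.30 CPM at 4 h and 6.56 CPM at 8 h. Only library 1 was clear of the control, with a ratio of 2.26 (1.84 to 2.80), while library 2 was at 1.19 (0.94 to 1.505). In the fit, Tac1 at 4 h had a log2 fold change of 0.78 ± 0.46 (SE; adjusted p = 0.560, edgeR quasi-likelihood, Benjamini-Hochberg), and 0.25 without library 1. Tac2 (chr10:127724478-127731768, forward strand), the precursor of neurokinin B, had between 24 and 34 counts per library. The intervals of its ratios to the control all included equality, so that no difference was detectable at this depth.

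Sst and Cck were abundant and moved little. Sst (chr16:23889573-23890958, reverse strand) encodes somatostatin, an inhibitory peptide of dendrite-targeting interneurons, and was at 80.8 CPM in the control, 72.8 CPM at 1 h, 103 and 80.9 CPM at 4 h and 63.9 CPM at 8 h. Library 1 was the highest and 8 h the lowest. The log2 fold changes were -0.15 ± 0.24 (SE), 0.19 ± 0.21 and -0.34 ± 0.24 at 1, 4 and 8 h, with adjusted p = 1, 0.756 and 1.00 (edgeR quasi-likelihood, Benjamini-Hochberg), and the value at 4 h was 0.00 without library 1. Cck (chr9:121489824-121495694, reverse strand), the precursor of cholecystokinin, which is made by basket cells and by pyramidal cells, was at 152 CPM in the control, 160 CPM at 1 h, 168 and 155 CPM at 4 h and 133 CPM at 8 h. Its ratio to the control lay between 0.88 after 8 h and 1.11 in library 1, and its log2 fold changes were 0.07 ± 0.19 (SE), 0.09 ± 0.16 and -0.19 ± 0.19. The value for Cck at 4 h was 0.03 without library 1, and it turned to -0.03 when scaled by library size alone.

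Gal (chr19:3409915-3414544, reverse strand), the precursor of galanin, was close to the limit of detection. It had 6 counts in the control, 3 after 1 h, 11 and 17 after 4 h and 16 after 8 h. The later libraries were above the control, yet the interval of the ratio in library 1 was wide and included equality, at 2.17 (0.73 to 7.14), and at 8 h it was 3.03 (1.13 to 9.45). The log2 fold change was 1.11 ± 0.78 (SE) at 4 h and 1.31 ± 0.86 after 8 h, with adjusted p = 0.551 and 1.00 (edgeR quasi-likelihood, Benjamini-Hochberg), and 1.30 for 4 h without library 1. A floor of 3 counts corresponds to between 0.151 and 0.178 CPM in these libraries.

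**Figure D2:**
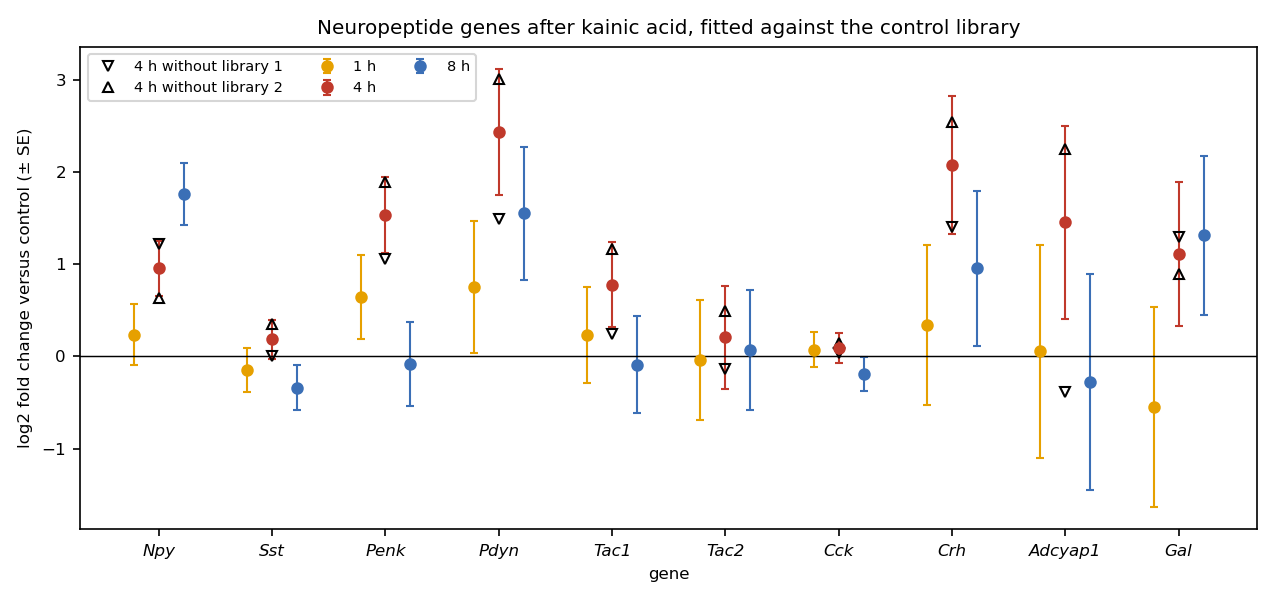
Log2 fold change of each gene against the control library (vertical axis) at 1, 4 and 8 h, with SE bars from the edgeR fit, and the 4 h value without library 1 or without library 2 as open triangles. At 4 h, Adcyap1 turned from 1.46 to -0.39 without library 1, while Npy moved from 0.95 to 1.22 without library 1 and to 0.63 without library 2.

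The pair at 4 h set the error of all these tests. Of the 10 genes, 8 were higher in library 1 than in library 2, the exceptions being Npy and Gal, and 3 (Pdyn, Crh and Adcyap1) were at least 2-fold apart. Over the 19702 genes with counts in both libraries, 51.1% were higher in library 1, 11.8% were at least 2-fold apart, and the log2 ratio of the libraries had an SD of 0.72. The log2 ratio of library 1 to library 2 was 2.66 for Adcyap1, 1.52 for Pdyn, 1.19 for Crh, 0.84 for Penk and -0.59 for Npy.

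**Figure D3:**
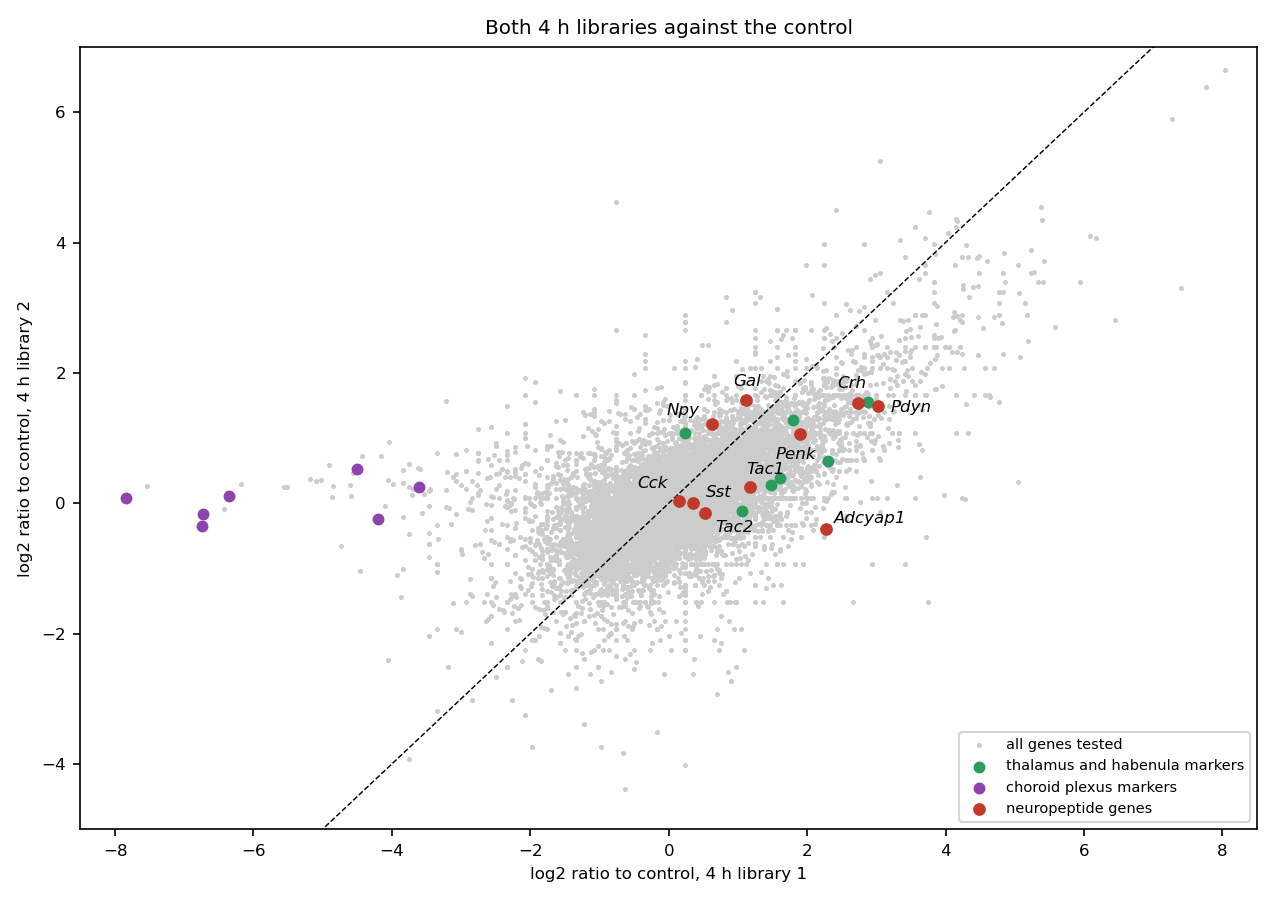
Log2 ratio to the control of every gene tested with counts in the control and both 4 h libraries, in library 1 (horizontal axis) and library 2 (vertical axis), with equal ratios on the dashed line. Choroid plexus markers lie far to the left, markers of thalamus and habenula lie mostly to the right of the line, and of the neuropeptide genes Adcyap1 lies farthest from it with a log2 ratio of library 1 to library 2 of 2.66.

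Levels were compared between genes after division by exon length. In the control, Cck stood at 116 CPM per kb (exact Poisson 95% interval 112 to 121) and Sst at 112 (107 to 118), which overlapped, followed by Npy at 46.0 (42.1 to 50.1), Penk at 6.98 and Pdyn at 2.85. Below these came Tac1 at 2.05 (1.73 to 2.43), Adcyap1 at 1.44 (1.18 to 1.73), Tac2 at 1.02 (0.68 to 1.48), Crh at 0.49 (0.26 to 0.85) and Gal at 0.38 (0.14 to 0.83), and from Tac1 down each interval overlapped that of the next gene. At 8 h the order at the top had changed. Npy led with 156 CPM per kb (149 to 164), above Cck at 102 (97.8 to 106) and Sst at 88.6 (83.5 to 94.0), with intervals that did not overlap. Pdyn, at 8.44 (7.66 to 9.28), stood above Penk, at 6.56 (5.66 to 7.57), in that library. With 1 library per condition these intervals hold no spread between animals.

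Many genes that respond to neuronal activity carry the cAMP response element, bound by CREB, in their promoters. The RefSeq promoter table (GRCm38.p6, 250 bases before to 50 after each start) held windows for 8 of the 10 genes, all but Penk and Crh. Both strands were searched for the full element TGACGTCA, for its 5-base part CGTCA, which the full element contains, for the AP-1 motif TGANTCA and for the TATA box TATAAA. The full element was found in Sst only, and in 1.79% of all 32851 windows. CGTCA was found in Sst, Tac1, Cck, Adcyap1 and Gal (5 of 8 genes), in 6 of the 10 windows of the 8 genes and in 20.8% of all windows. TATAAA was found in Adcyap1 and in 13.6% of all windows, and TGANTCA in none of the 8 genes and in 7.81% of all windows. The following sites upstream of the start are given on the sense strand of each gene, with the match in capitals, for the gene with the full element, the abundant Cck, and Tac1 and Adcyap1, which differed most between the 4 h libraries among the genes with a match.
Sst, chr16:23890874-23890903, reverse strand: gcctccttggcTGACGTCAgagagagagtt
Cck, chr9:121495725-121495754, reverse strand: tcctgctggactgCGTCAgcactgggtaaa
Tac1, chr6:7554851-7554880, forward strand: ttccctaaaattgCGTCAtttcgaacacaa
Tac1, chr6:7555005-7555034, forward strand: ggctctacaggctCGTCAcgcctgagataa
Adcyap1, chr17:93198913-93198942, forward strand: gggactaggatgcTGACGtcttttactgat
The match began 48 bases before the RefSeq start in Sst, 47 before it in Cck, 197 and 43 before it in Tac1 and 91 before the more upstream of both starts in Adcyap1, where it lies on the opposite strand. In GENCODE M21 the Sst match and the nearer Tac1 match fall inside an annotated exon, because transcripts there begin further upstream. Npy, Pdyn and Tac2 held none of the 4 motifs in these windows. A match is a description of the letters and does not show binding.

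For each gene with a log2 ratio to the control of at least 1 in size in some library, the genes with the most similar ratios over the 4 kainic acid libraries were sought among 13345 genes with a mean of at least 50 counts. Likeness was the root mean square difference of log2 ratios. All these ratios share the control library, and no value expected for unrelated genes was computed, so the order is a description only. Npy was nearest to Rara (0.13), Serinc2 (0.15) and Acvr1c (0.25), and Penk to Dusp16 (0.11), Tmem178 (0.12) and Lpp (0.14). Pdyn was nearest to Lyzl4 (0.30), Rhoj (0.31) and Glipr2 (0.34). Crh, with only 13 counts in the control, was nearest to Dok5 (0.08), Gm44676 (0.19) and Nedd9 (0.24). Tac1 was nearest to B830012L14Rik (0.07) and Ugcg (0.09). Adcyap1 was nearest to Rad52 (0.34), Gm3854 (0.40) and Ism1 (0.42), and Gal, on few counts, to 1110002E22Rik (0.28), A2m (0.32) and Mex3a (0.40).

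Receptors of these peptides lay on both sides of the control. Of 26 receptor genes, 19 passed the filter on low counts, and 15, 12 and 14 of them had a log2 fold change below 0 at 1, 4 and 8 h, against 50.9%, 49.2% and 48.9% of all genes. Scaled by library size alone there were 16, 13 and 14, against 62.2%, 59.4% and 46.7%. The median over the 19 was -0.53 after 1 h, -0.35 after 4 h and -0.44 after 8 h, and for 4 h it was -0.47 without library 1 and 0.07 without library 2. At least 2-fold higher were 0, 3 and 1 of the 19 at 1, 4 and 8 h, against 5.41%, 4.96% and 6.79% of all genes, and at least 2-fold lower were 4, 2 and 6, against 3.8%, 1.51% and 3.37%. Without library 1, the counts at 4 h were 4 higher and 3 lower, against 6.59% and 3.73%. By edgeR 0 of 19 had an adjusted p under 0.05 at each time point, 1, 7 and 7 had an unadjusted p under 0.05, against 2.42%, 11.6% and 4.51% of all genes, DESeq2 called 0, 3 and 0 of the 16 it adjusted, against 0.323%, 1.62% and 0.206%, and limma-voom called 0 at each time point.

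Npy2r, the presynaptic receptor through which neuropeptide Y inhibits glutamate release and the most abundant of its receptors per length as a mean over the 5 libraries, lay below the control where Npy lay above it. It was at 49.0 CPM in the control, 30.7 CPM at 1 h, 16.3 and 20.0 CPM at 4 h and 13.9 CPM at 8 h. All kainic acid libraries were below the control and the 4 h pair was close. In library 1, Npy1r stood above it per length, at 8.82 against 4.83 CPM per kb. The log2 fold change was -1.43 ± 0.23 (SE) at 4 h and -1.81 ± 0.29 after 8 h, with adjusted p = 0.245 and 0.756 (edgeR quasi-likelihood, Benjamini-Hochberg), and DESeq2 called it at 4 h. The value for 4 h was -1.29 without library 1.

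Among the somatostatin receptors that passed the filter, Sstr2 and Sstr3 were above the control in both 4 h libraries. Sstr2 was at 8.89 CPM in the control, 9.10 CPM at 1 h, 51.1 and 34.5 CPM at 4 h and 19.3 CPM at 8 h, and its log2 fold change at 4 h stood at 2.25 ± 0.34 (SE; adjusted p = 0.245, edgeR quasi-likelihood, Benjamini-Hochberg) and at 1.94 without library 1. Sstr3, which the rule for naming genes did not select, was at 36.2 CPM in the control, 21.7 CPM at 1 h, 53.2 and 96.6 CPM at 4 h and 50.8 CPM at 8 h, and its log2 fold change at 4 h came to 1.05 ± 0.38 (SE; adjusted p = 0.408, same test), or 1.41 without library 1. Unlike Sstr2, it was below the control at 1 h and higher in library 2 than in library 1. Sstr1 was at 14.4 CPM in the control and 4.62 CPM at 8 h, with 15.1 and 7.25 CPM at 4 h. Sstr4, the most abundant of the family per length as a mean over the 5 libraries, lay between 20.4 and 29.2 CPM. Per length it was below Sstr2 in library 1 (20.5 against 23.8 CPM per kb) and below Sstr3 in library 2 (16.9 against 22.4 CPM per kb).

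The receptors of PACAP differed among themselves. Adcyap1r1, its selective receptor and the most abundant receptor per length of this group, was at 182 CPM in the control, 156 CPM at 1 h, 113 and 115 CPM at 4 h and 102 CPM at 8 h. Vipr1, which also binds VIP, was at 22.9 CPM in the control, 79.6 and 59.8 CPM at 4 h and 27.4 CPM at 8 h, with a log2 fold change of 1.60 ± 0.26 (SE) for 4 h (adjusted p = 0.245, edgeR quasi-likelihood, Benjamini-Hochberg) and 1.38 without library 1. Vipr2 had 19 counts in the control, 4 after 1 h, 131 in library 1, 37 in library 2 and 3 after 8 h.

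The remaining receptors bind tachykinins, opioids, corticotropin-releasing hormone, cholecystokinin or galanin. Tacr3, the receptor of neurokinin B, had 101 counts in the control, 32 after 1 h, 46 and 38 after 4 h and 4 after 8 h, which gave a ratio of 0.04 (0.01 to 0.12) at 8 h. Fitted at 8 h, it had a log2 fold change of -3.94 ± 0.70 (SE; adjusted p = 0.756, edgeR quasi-likelihood, Benjamini-Hochberg). Oprk1, the receptor of dynorphin, was below the control in every kainic acid library, with 34 counts in the control and between 8 and 16 after kainic acid. Oprd1, the more abundant enkephalin receptor per length, was at 16.1 CPM in the control, 9.21 and 11.7 CPM at 4 h and 21.3 CPM at 8 h, and Crhr1 at 13.2 CPM in the control, 7.42 and 7.14 CPM at 4 h and 12.1 CPM at 8 h. Cckbr lay on either side of the control at 4 h, with 12.9 and 5.29 CPM against 9.35 CPM. Tacr1 had at most 18 counts and Galr1 at most 36.

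Precursors are cut by proprotein convertases in the secretory pathway. Of 13 processing genes, all of which passed the filter, 1, 2 and 1 were at least 2-fold higher than the control at 1, 4 and 8 h, against 5.41%, 4.96% and 6.79% of all genes, and 0 were lower, against 3.8%, 1.51% and 3.37%. These counts at 4 h were 2 and 0 without library 1, against 6.59% and 3.73%. By edgeR 0 of 13 had an adjusted p under 0.05, with 0, 4 and 1 at an unadjusted p under 0.05, against 2.42%, 11.6% and 4.51% of all genes, and DESeq2 called 0, 1 and 0, against 0.323%, 1.62% and 0.206%, and limma-voom 0 at each time point. Pcsk1, the convertase PC1/3, was at 52.7 CPM in the control, 131 CPM at 1 h, 529 and 155 CPM at 4 h and 45.9 CPM at 8 h. It was thus the processing gene that was already high at 1 h and back near the control at 8 h, although the 4 h libraries differed 3.41-fold. Furin, a convertase of the trans-Golgi network, was at 29.6 CPM in the control, 98.2 and 70.2 CPM at 4 h and 48.8 CPM at 8 h. Pcsk5 was highest at 8 h, with 54.2 CPM against 21.2 CPM in the control.

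**Figure D4:**
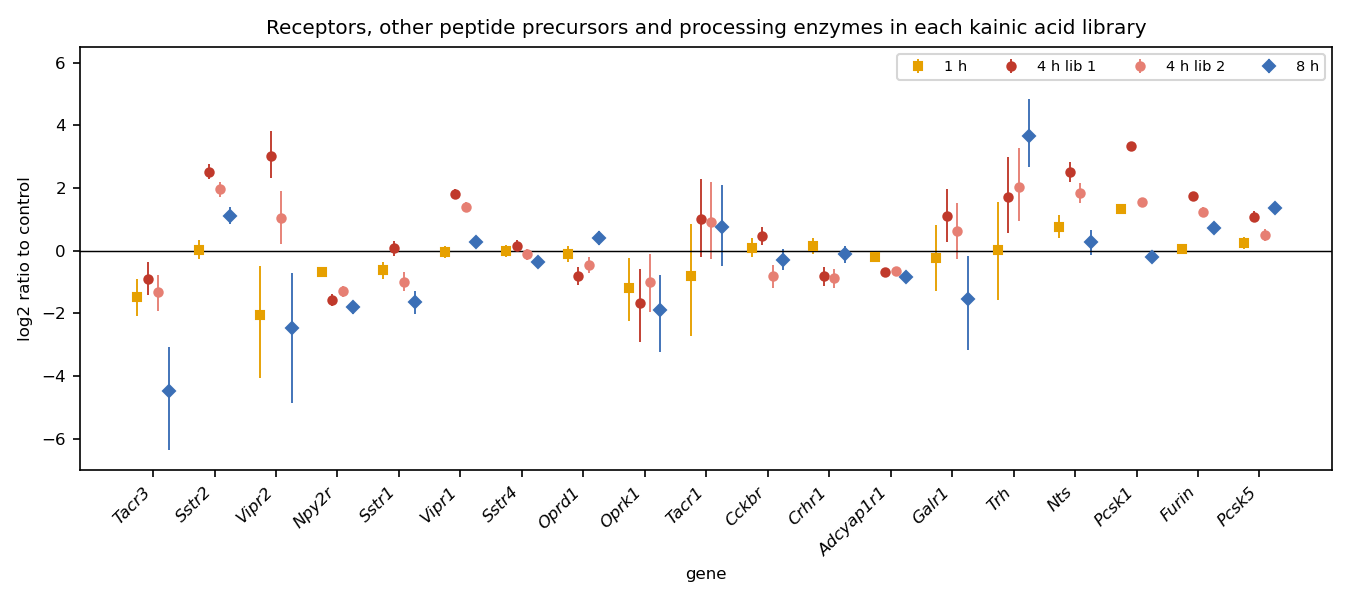
Log2 ratio to the control (vertical axis) of the named receptors, other precursors and processing enzymes (horizontal axis) in each kainic acid library, with exact binomial 95% intervals for counting error only. Npy2r was below 0 in all 4 libraries and Sstr2, Vipr1, Nts, Pcsk1 and Furin were above 0 in both 4 h libraries.

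Of 40 other peptide precursors, 17 passed the filter. At least 2-fold higher were 0, 2 and 2 of them at 1, 4 and 8 h, against 5.41%, 4.96% and 6.79% of all genes, and at least 2-fold lower were 1, 0 and 1, against 3.8%, 1.51% and 3.37%. The 2 higher at 8 h were Trh and Avp, and Trh was also counted at 4 h. Trh reached 10 counts only at 4 and 8 h, and Avp only at 8 h. Both thus passed the filter on low counts through libraries where they were high, and their place in these counts carries no weight. Avp had 4 counts in the control and 10 after 8 h, a ratio of 2.84 (0.82 to 12.4). For 4 h without library 1 there were 2 higher and 2 lower, against 6.59% and 3.73%. By edgeR 0 of 17 had an adjusted p under 0.05, with 0, 3 and 1 at an unadjusted p under 0.05, against 2.42%, 11.6% and 4.51% of all genes, DESeq2 called 0, 1 and 0 of the 13, 11 and 13 it adjusted, against 0.323%, 1.62% and 0.206%, and limma-voom 0 at each time point. Nts, the neurotensin precursor, was at 5.28 CPM in the control, 8.99 CPM at 1 h, 29.9 and 18.7 CPM at 4 h and 6.33 CPM at 8 h, and thus high in the same libraries as Penk. Trh, the precursor of thyrotropin-releasing hormone, had 9 counts in the control, 8 after 1 h, 25 and 35 after 4 h and 100 after 8 h. Like Npy it was highest at 8 h, with a ratio of 12.6 (6.39 to 28.4) and a log2 fold change of 3.37 ± 0.63 (SE; adjusted p = 0.868, edgeR quasi-likelihood, Benjamini-Hochberg).

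Activity genes gave the time frame for the peptides. All 10 of 10 were at least 2-fold higher than the control at 1 h, 6 after 4 h and 3 after 8 h, against 5.41%, 4.96% and 6.79% of all genes, and 0 were lower, against 3.8%, 1.51% and 3.37%. The count at 4 h was also 6 without library 1, against 6.59%. By edgeR 0 of 10 had an adjusted p under 0.05, with 10, 6 and 1 at an unadjusted p under 0.05, against 2.42%, 11.6% and 4.51% of all genes, DESeq2 called 2, 3 and 1, against 0.323%, 1.62% and 0.206%, and limma-voom 0 at each time point. Fos was at 10.8 CPM in the control, 999 CPM at 1 h, 519 and 70.4 CPM at 4 h and 17.2 CPM at 8 h, and Npas4 at 3.92, 694, 130, 4.92 and 5.13 CPM in the same order. Both were therefore many-fold higher in library 1 than in library 2 of the same time point, as were Fosb (238 and 60.2 CPM), Junb (161 and 38.0 CPM) and Nr4a1 (163 and 34.6 CPM). Nptx2, which encodes a secreted pentraxin, was at 17.3 CPM in the control, 198 CPM at 1 h, 721 and 402 CPM at 4 h and 89.9 CPM at 8 h. The part of these differences between the 4 h libraries in the values of Pdyn, Penk, Crh and Adcyap1 was not tested.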

How the data were processed

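Total RNA of hippocampus was sequenced by the authors in 5 stranded libraries. Per the labels, reads were aligned with STAR 2.5.1b to GRCm38.p4 and counted with HTSeq, with neither its version and strand setting nor the annotation release named there. The deposited values are raw counts of reads per gene. Summary lines naming no gene were left out of library sizes. Of the deposited totals, these lines held 24.7% to 33.1% for reads outside genes (highest in library 1 of 4 h), 1.26% to 1.52% for ambiguous reads and 9.67% to 11.6% for reads with several alignments.

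The analysis of counts used edgeR 4.0.16 (R 4.3.3): filterByExpr, TMM factors (1.04, 0.992, 0.924, 0.991 and 1.06 for the control, 1 h, both 4 h and 8 h libraries), and glmQLFit with 4 groups. The common dispersion was 0.0565. Log2 fold changes used a prior count of 2, and SE came from the unshrunk coefficient and F. Adjustment ran over all 19768 genes, with a threshold of 0.05. CPM refer to TMM-scaled library sizes. The fold rule asked for a 2-fold difference from the control in every library of a time point and is a description with no test. Intervals are exact at 95%. Statistics were tested on simulated data, from which no error rate is given for the tests reported here.

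Alternatives were other scalings, filters and a smaller prior count, DESeq2 1.42.0, limma-voom (limma 3.58.1), assumed biological coefficients of variation of 0.2 and 0.4, all kainic acid libraries as 1 group, and leaving out each 4 h library. Genes outside the 10 were named from lists when at least 2-fold from the control in every library of a time point with at least 50 counts in a library, up to 6 per list, plus the most abundant receptor of each peptide. The members and lists were chosen with earlier results of these data known. Exon lengths came from GENCODE M21.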

Additional observations from a re-analysis of the deposited data

How the results depend on the processing

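The number of the 10 genes at least 2-fold higher at 4 h was 4, against 4.96% of all genes. It was 2 with scaling by library size alone (4.02%), 5 without library 1 (6.59%) and 6 without library 2 (11.9%). With at least 10 counts in every library it was 3 of the 9 genes left, without Gal. The share of all genes was not computed for that setting. Counts of genes called moved with the setting. At 1, 4 and 8 h the main test called 0, 1 and 0 genes. Scaling by library size alone gave 57, 237 and 22, DESeq2 gave 49, 233 and 32, a fixed biological coefficient of variation gave 238, 916 and 184 at 0.2 and 40, 81 and 12 at 0.4, and no filter on low counts gave 285, 1300 and 279. At least 10 counts in every library gave 1 at 1 h and 0 at 4 h, and median-of-ratios factors, limma-voom and the kainic acid libraries as 1 group gave 0 at 4 h. Of the 10 neuropeptide genes, an assumed coefficient of 0.2 called 4 at 4 h (Penk, Pdyn, Crh and Adcyap1) and 2 at 8 h (Npy and Pdyn), against 4.63% and 0.931% of all genes. Of these, Adcyap1 was high in library 1 alone. No filter on low counts called 5 at 4 h, with Npy added, and the same 2 at 8 h, against 3.97% and 0.852% of the 32732 genes then tested. DESeq2 called 1 of 9 (Npy) at 8 h, against 0.206%. The cause was not tested. With the kainic acid libraries as 1 group, 7 of 30 log2 fold changes changed sign, 1 of them (Gal at 1 h) from a main value over 0.5 in size. That fit gives each gene the same value at every time point. A gene whose main values differ in sign between times must therefore change sign there, which says nothing about processing. Without library 1 of 4 h, 2 of 30 changed sign (Tac2 and Adcyap1 at 4 h). Of these, 1 had a main value over 0.5 in size (Adcyap1, from 1.46 to -0.39). With library size alone, 2 of 30 changed sign (Cck at 4 h and Adcyap1 at 1 h), 0 of them from such a value. The filter at 10 counts left 27 of 30 values, since Gal did not pass it. Leaving out a 4 h library left no residual degree of freedom, so those values have no test. No paired analysis was possible because the labels give no matching of libraries between conditions. Counts of Gal, Crh and Tac2 limit what could be detected.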
